A study of Mus musculus with 18 samples.

Results

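Hearts labelled knockout for both Irx3 and Irx4 were compared with hearts labelled heterozygous for both genes, which asks what the loss of the remaining copies adds once each gene is already at a single dose. The comparison used 6 of the 18 libraries of the series, chosen by genotype and replicate number: replicates 2, 3 and 4 labelled Irx3KO_Irx4KO (double knockout, DKO) and replicates 2, 3 and 4 labelled Irx3het_Irx4het (double heterozygote). All came from mouse heart ventricles at E14.5, dissected and frozen before polyA RNA was made into strand-specific libraries, and the labels name no treatment. No library of this comparison was wild type (WT): both groups carried a mutant allele of each gene. The other 12 libraries were Irx3KO 1, 2 and 4, Irx4KO 2, 3 and 4, DKO 5, 7 and 10, and WT 1, 2 and 3, of the same tissue and age. The labels do not say how either allele was made, which part of Irx4 was removed, on which strain the mice were kept, or whether a library held 1 embryo or several. The p-values thus reflect how these libraries vary, and part of that variation may be technical.

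Iroquois homeobox genes encode transcription factors that lie in a pair of clusters in the mouse genome, with Irx3, Irx5 and Irx6 in one and Irx1, Irx2 and Irx4 in the other. Irx4 marks the ventricle from early heart tube stages and represses atrial genes there, and Irx3 is expressed in the trabecular wall and the ventricular conduction system, where it controls connexin genes. The proteins act as both activators and repressors and bind a short palindrome.

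Library totals were 39990343, 39164601 and 37878705 estimated counts in DKO 2, 3 and 4 and 41725666, 40055674 and 26721576 in double heterozygotes 2, 3 and 4. The labelled tissue carried its defining markers: the ventricular light chain Myl2 was at 12700 to 13400 TPM (an abundance scaled for transcript length and library total) in DKO and 13700 to 14700 TPM in double heterozygotes. Levels of atrial markers spanned a wide range. Sarcolipin (Sln), an atrial protein, was at 15.2 to 21.2 TPM in DKO and 17.8 to 22.9 TPM in double heterozygotes. The atrial light chains Myl4 and Myl7 were at 2640 to 3040 and 1610 to 1830 TPM in DKO. In double heterozygotes Myl4 was at 2250 to 2520 TPM and Myl7 at 1020 to 1280 TPM. The series holds a pair of technical profiles that the labels do not name. Across genes, the deviation of a library from the mean of all 18 followed transcript length with Spearman's rho between 0.028 and 0.343 in the 12 libraries that include these 6, and between -0.417 and -0.223 in WT and DKO 5, 7 and 10. Within those 12, rho was 0.028, 0.167 and 0.096 in DKO 2, 3 and 4. In double heterozygotes 2, 3 and 4 it was 0.343, 0.197 and 0.257. The compared groups were thus separate on this measure, and the length trend and the genotype cannot be told apart here. Y-linked genes summed to 131, 137 and 1.1 CPM (counts relative to library size) in DKO 2, 3 and 4 and to 1.44, 149 and 158 CPM in double heterozygotes 2, 3 and 4, so that 1 library of each group was low.

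Irx3 fell as its labels state. It was at 3.32, 3.82 and 3.83 CPM in DKO 2, 3 and 4, against 12.8, 13.2 and 13.3 CPM in double heterozygotes 2, 3 and 4. The groups lay far apart and each was tight, and DKO kept 0.279 times the heterozygous level (log2 fold change -1.84 ± 0.13 SE, adjusted p = 1e-06). Here and below, the adjusted p is from edgeR's quasi-likelihood test with Benjamini-Hochberg adjustment over all genes tested, a log2 fold change is DKO minus double heterozygote, and a gene "rose" or "fell" where that p was under 0.05. The transcript Irx3-201 held 0.0% to 9.1% of the Irx3 counts in DKO and 20.1% to 26.6% in double heterozygotes. Irx3-202 accounted for the rest, with 110 to 142 estimated counts in DKO and 260 to 404 in double heterozygotes, so counts on this transcript persisted in DKO at a lower level.

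Irx4 RNA was not lower in libraries labelled DKO. Its level was 237, 230 and 221 CPM in DKO 2, 3 and 4, against 191, 189 and 176 CPM in double heterozygotes 2, 3 and 4. All 3 DKO libraries were higher, but the difference did not pass with the spread of all 18 libraries (0.31 ± 0.14, adjusted p = 0.464). It passed with the spread of the 12 libraries of the same profile (adjusted p = 0.0324; 0.0324 to 0.708 over 19 alternatives). In libraries outside this comparison Irx4 averaged 253 CPM in DKO 5, 7 and 10, against 95.6 CPM in WT (1.41 ± 0.14, adjusted p = 0.000104). Irx4-202 held 91.2% to 91.8% of the counts in DKO and 88.1% to 89.9% in double heterozygotes. Irx4 averaged 225 CPM in Irx4KO and 145 CPM in Irx3KO, so its mean was higher in each group labelled knockout for Irx4 than in the others. These means are given with no test. Since the deleted part is not named, the counts cannot show whether Irx4 function was lost, and DKO stands below for libraries so labelled. None of the 4 other Irx genes passed. Irx2 was the nearest, at 19.6, 15 and 22.8 CPM in DKO, against 26.2, 26.1 and 26.8 CPM in double heterozygotes (-0.46 ± 0.16, adjusted p = 0.324), with every DKO library lower. Irx6 went the other way, with every DKO library higher (0.89 ± 0.35, adjusted p = 0.409). Groups were separate in 7.95% of all genes tested with DKO lower and in 8.07% with DKO higher. In DKO 5, 7 and 10 against WT, Irx2 was at 0.13 (adjusted p = 0.772) and Irx6 at 0.93 (adjusted p = 0.221).

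Of 16607 genes tested, 15 differed between DKO and double heterozygotes (0.0903%), 6 higher (0.0361%) and 9 lower (0.0542%). Among them the connexin Gja1 and the calcium pump inhibitor Pln fell, and the T-box repressor Tbx2 and the potassium channel Kcnh7 rose. At an unadjusted p under 0.05 there were 1629 genes (9.81%). The median log2 fold change of all genes was 0.004. The count was small and moved with single libraries: it was 6 without DKO 3, 5 without DKO 4 and 4 without double heterozygote 3. It depended more on which libraries set the spread, which is taken up below. It was 15 with all 18 libraries in the fit and 11 with only the 6 compared. The 11 were not a subset of the 15. Irx3, Pcdhac2, Gja1, Trib2 and Wscd2 passed with only the 6. Tbx2, Kcnh7, Pln, Pdzrn3, Nup210, Sfrp1, Nav1, Hif3a and Gnb3 did not. With the 12 libraries of the same profile the count was 173 (1.06% of 16292 genes). DESeq2 called 183.

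**Figure D1:**
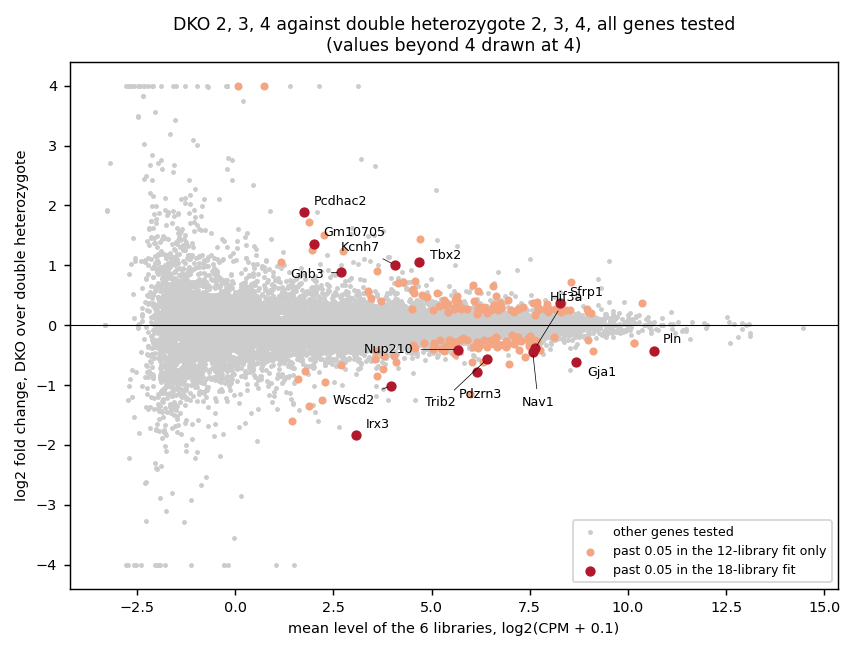
Mean level of each gene over the 6 libraries (x axis, log2 of CPM + 0.1) against its log2 fold change in DKO over double heterozygotes (y axis, values beyond 4 drawn at 4). Dark red points are the 15 genes past 0.05 in the 18-library fit, orange points those past it only in the 12-library fit, and grey points the other genes tested; Irx3 is the lowest dark red point, at -1.84.

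Gja1 encodes connexin 43, the main gap junction protein of working ventricular muscle. It was at 304, 343 and 327 CPM in DKO 2, 3 and 4, against 511, 499 and 477 CPM in double heterozygotes 2, 3 and 4. The lowest heterozygote was well above the highest DKO library, and the level in DKO was 0.655 times that in heterozygotes (-0.61 ± 0.09, adjusted p = 0.00675). Gja1 passed without each of the 6 libraries in turn, with an adjusted p of at most 0.0487. In whole ventricles, fewer cells of a type and less RNA per cell cannot be told apart, for this gene and for those that follow.

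Pln encodes phospholamban, which restrains the sarcoplasmic calcium pump and is far more abundant in ventricle than in atrium. It was at 1430, 1350 and 1350 CPM in DKO 2, 3 and 4, against 1820, 1970 and 1750 CPM in double heterozygotes 2, 3 and 4. The fall was the smaller of the pair but the groups were separate (-0.42 ± 0.07, adjusted p = 0.0219). The call was lost without DKO 3, DKO 4, double heterozygote 2 or double heterozygote 3, with an adjusted p of up to 0.183. It was also lost with length and GC trends removed from the 18 libraries, and with only the 6 libraries compared in the fit.

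Tbx2 represses chamber genes in the atrioventricular canal and outflow tract of the embryonic heart. It was at 27.2, 38.3 and 37.8 CPM in DKO 2, 3 and 4, against 16.4, 14.7 and 18.9 CPM in double heterozygotes 2, 3 and 4. DKO 2 was the lowest of its group and still above every heterozygote. The mean was 2.07 times as high in DKO (1.05 ± 0.14, adjusted p = 0.00596). Tbx2 did not pass without double heterozygote 3 (adjusted p = 0.0608), nor with only the 6 libraries compared in the fit.

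Kcnh7 encodes a voltage-gated potassium channel of the ether-a-go-go-related family, best known in neurons. Its level was 18.9, 21.4 and 26.2 CPM in DKO 2, 3 and 4, against 12.5, 9.39 and 11.2 CPM in double heterozygotes 2, 3 and 4. The groups did not overlap, and the level was 2.01 times as high in DKO (1.01 ± 0.14, adjusted p = 0.00675). Without DKO 4 or without double heterozygote 3 the gene no longer passed, at up to 0.0643. Nor did it pass with only the 6 libraries compared in the fit.

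**Figure D2:**
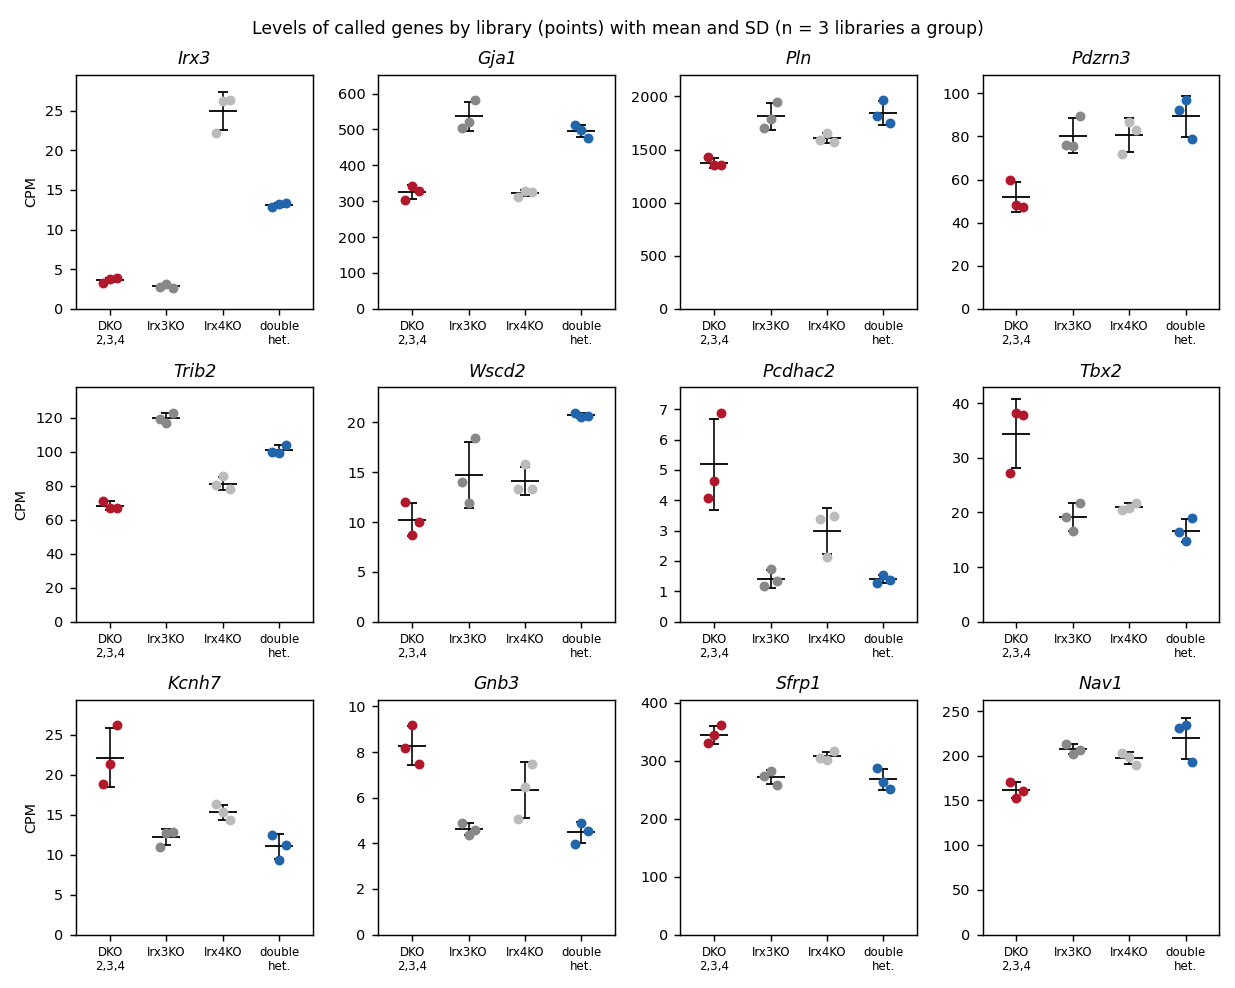
CPM of named genes in each library, with DKO 2, 3 and 4 on the left of each panel, then Irx3KO and Irx4KO, and double heterozygotes 2, 3 and 4 on the right. Points are libraries, bars are the mean and SD (n = 3), and each y axis starts at 0. In every panel shown the 3 DKO points lie entirely above or entirely below the 3 heterozygote points, as for Gja1 at 304 to 343 CPM in DKO against 477 to 511 CPM in double heterozygotes. The largest rises and falls were named only where the groups did not overlap, so this separation follows from the choice of genes.

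The rises outside this set were in Pcdhac2, Gnb3, Sfrp1 and 1 gene model. Pcdhac2, a clustered protocadherin that mediates neuronal cell recognition, was at 4.06, 4.62 and 6.89 CPM in DKO, against 1.29, 1.55 and 1.36 CPM in double heterozygotes. It had the largest rise of those named, 3.7 times (1.89 ± 0.24, adjusted p = 0.00387), and passed without each library in turn. The protocadherin genes of its cluster share their last exons, so reads may be split between them and its count is uncertain. Sfrp1, a secreted inhibitor of Wnt ligands, was at 330, 344 and 361 CPM in DKO and 287, 264 and 252 CPM in double heterozygotes, a rise of 1.29 times (0.36 ± 0.06, adjusted p = 0.0332), lost without DKO 3, DKO 4, double heterozygote 3 or double heterozygote 4. Gnb3, a beta subunit of heterotrimeric G proteins, was at 8.18, 9.17 and 7.46 CPM in DKO and 3.98, 4.89 and 4.56 CPM in double heterozygotes (0.89 ± 0.16, adjusted p = 0.0491), and did not pass once any 1 of the 6 libraries was left out. The gene model Gm10705, outside the naming rule and included here after its value was seen, rose by 1.36 (adjusted p = 0.00854).

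The remaining falls were in Pdzrn3, Trib2, Nup210, Nav1, Hif3a and Wscd2. Pdzrn3, a ubiquitin ligase with PDZ domains, was at 60.0, 48.2 and 47.3 CPM in DKO and 92.4, 97.1 and 78.8 CPM in double heterozygotes (-0.79 ± 0.12, adjusted p = 0.00854). Trib2, a Tribbles pseudokinase, had tight groups, at 66.7 to 71.1 CPM in DKO and 99.4 to 104 CPM in double heterozygotes (-0.57 ± 0.09, adjusted p = 0.0117). Both lost the call without DKO 3, without DKO 4 or without double heterozygote 3, at up to 0.113.

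The nuclear pore membrane protein Nup210 averaged 43.8 ± 2.63 CPM in DKO and 58.1 ± 5.25 CPM in double heterozygotes (SD, n = 3 each; edgeR adjusted p = 0.0302). Nav1, a microtubule-associated neuron navigator, averaged 161 ± 9.19 CPM in DKO and 220 ± 22.7 CPM in double heterozygotes (edgeR adjusted p = 0.0357). Hif3a, an alpha subunit of hypoxia-inducible factors, averaged 172 ± 13.7 CPM in DKO and 225 ± 14.3 CPM in double heterozygotes (edgeR adjusted p = 0.0491). These falls were of similar size, 0.735 to 0.765 times the heterozygous level, with no overlap between groups. Wscd2, which encodes a membrane protein with WSC domains, was at 8.74 to 12 CPM in DKO and 21.0, 20.5 and 20.6 CPM in double heterozygotes, 0.496 times in DKO (-1.01 ± 0.19, adjusted p = 0.0491). Hif3a and Wscd2 did not pass once any 1 of the 6 libraries was left out, Nav1 passed only without double heterozygote 4, and Nup210 only without double heterozygote 2 or double heterozygote 4.

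Libraries that did not enter these fold changes gave a second reading of the same genes: DKO 5, 7 and 10 against WT 1, 2 and 3, where 239 genes differed (1.44%), 107 higher (0.644%) and 132 lower (0.795%). These libraries helped set the spread by which the 15 genes were called. Passing or having separate groups there is thus not a separate check. There WT stands in place of the double heterozygote, so the step in gene dose is larger. Of the 15 genes, 14 had the same sign in those libraries, 11 also passed there, and for 13 the groups were separate in the same direction. Each of these counts includes Irx3, a targeted gene. Of all genes tested, 60.3% had the same sign, and in DKO 5, 7 and 10 against WT the groups were separate for 7.97% as higher and 7.04% as lower. Gja1 was at 361, 340 and 407 CPM in DKO 5, 7 and 10, against 593, 580 and 475 CPM in WT (-0.57 ± 0.09, adjusted p = 0.00285). Tbx2 was at 52.1, 43.5 and 40.2 CPM in DKO 5, 7 and 10, against 21.4, 21.8 and 26.5 CPM in WT (0.96 ± 0.14, adjusted p = 0.00231). For both genes the fold changes of the separate sets of libraries were within 1 SE of each other.

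Among the rest, Irx3 fell further against WT than against heterozygotes (-2.72 ± 0.13 in DKO 5, 7 and 10 against WT). Nav1 (-0.26, adjusted p = 0.119), Wscd2 (-0.40, adjusted p = 0.344) and Gnb3 (0.47, adjusted p = 0.176) kept their sign there without passing. Gm10705 alone had the other sign, at -0.07 (adjusted p = 0.925).

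**Figure D3:**
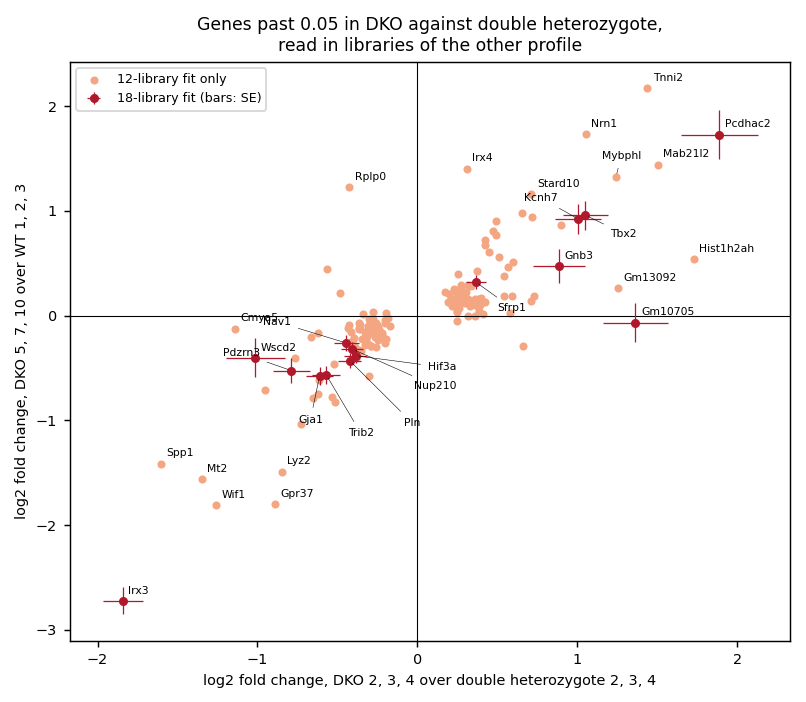
Log2 fold change in DKO 2, 3 and 4 over double heterozygotes (x axis) against the log2 fold change in DKO 5, 7 and 10 over WT (y axis) for genes past 0.05 in the first comparison; dark red points with SE bars are the 15 genes of the 18-library fit and orange points those of the 12-library fit only. Points in the lower left and upper right have the same sign in both sets of libraries, which share none.

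In the single knockouts, the called cardiac genes did not all sit at the same place. The mean of Gja1 was 536 CPM in Irx3KO and 322 CPM in Irx4KO, beside 325 ± 19.4 CPM in DKO and 496 ± 17.5 CPM in double heterozygotes. Tbx2 averaged 19.1 CPM in Irx3KO and 21.1 CPM in Irx4KO, beside 34.5 ± 6.25 CPM in DKO and 16.7 ± 2.12 CPM in double heterozygotes. Pln averaged 1812 CPM in Irx3KO and 1605 CPM in Irx4KO, beside 1375 ± 43.9 CPM in DKO and 1845 ± 113 CPM in double heterozygotes (SD, n = 3 each).

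By these means Gja1 in Irx4KO was at the DKO level, Tbx2 in both single knockouts was nearer the heterozygous level, and Pln in Irx4KO lay in between. Hif3a went the other way round from Gja1, at 177 CPM in Irx3KO and 228 CPM in Irx4KO, beside 172 ± 13.7 CPM in DKO and 225 ± 14.3 CPM in double heterozygotes. These means are given side by side with no test, since each comparison with the heterozygotes would share their libraries.

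The fit on the 12 libraries of the same profile leaves the fold changes nearly as they are and estimates the spread from DKO 2, 3 and 4, the double heterozygotes and the single knockouts alone. Its common dispersion was 0.0161, against 0.0207 over all 18 libraries and 0.0216 over the 6 compared, with 8 residual degrees of freedom against 12 over all 18. It called 88 genes higher (0.54%) and 85 lower (0.522%), which include all 15 genes above. In all 173 the groups were separate, as they were higher in 8.07% and lower in 7.95% of all genes tested. Changes were modest: in 123 of the 173 the log2 fold change was under 0.5 in size. The genes of this fit described below were picked after their values were seen, and a gene that "rose" or "fell" only there is marked as such; in the 18-library fit their adjusted p was 0.0568 or more.

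Myl7 and Tnni2, which encode contractile proteins, were among the rises of the 12-library fit. Myl7, the atrial regulatory light chain, was at 478, 427 and 490 CPM in DKO, against 273, 262 and 315 CPM in double heterozygotes (0.71, adjusted p = 0.118 with 18 libraries and 0.00099 with 12). Tnni2, the inhibitory troponin of fast skeletal muscle, was at 53.1, 27.8 and 32.9 CPM in DKO, against 14.3, 13.6 and 14.1 CPM in double heterozygotes (1.44, adjusted p = 0.161 with 18 libraries and 0.038 with 12). DKO 2 had the highest Tnni2 by far, while the heterozygotes barely differed. Of 13 skeletal muscle genes measured it was the one that rose, and their median was 0.017, with the slow troponin Tnnt1 at -0.27. Over all 19 alternatives the adjusted p ran from 0.00099 to 0.356 for Myl7 and from 0.0117 to 0.409 for Tnni2.

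Mybphl, a relative of myosin-binding protein H found in atria and the conduction system, was at 8.18, 7.82 and 12 CPM in DKO, against 4.11, 3.07 and 4.72 CPM in double heterozygotes, a log2 fold change of 1.24. Other rises of the 12-library fit were in Mab21l2 (1.5), a nuclear protein of eye and body wall development, the membrane protein Plppr5 (0.90), the matrix protein thrombospondin 4 (Thbs4, 0.65), the BMP-binding protein Bmper (0.71), and the ligand Bmp2 (0.60). Bmp2, which induces Tbx2 in the atrioventricular canal, was at 25, 25.3 and 32.3 CPM in DKO, against 18.4, 14.7 and 21.5 CPM in double heterozygotes. Every DKO library exceeded every heterozygote for both Bmp2 and Bmper.

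Kcnk3 and Slit2 were among the falls of the 12-library fit. Kcnk3, the acid-sensitive background potassium channel TASK-1, was at 54.0, 45.3 and 54.3 CPM in DKO, against 86.2, 76.5 and 72.7 CPM in double heterozygotes (-0.62, adjusted p = 0.0746 with 18 libraries and 0.006 with 12). Slit2, a secreted guidance ligand of Robo receptors, was at 53.0, 67.0 and 65.9 CPM in DKO, against 98.2, 85.0 and 103 CPM in double heterozygotes (-0.62, adjusted p = 0.246 with 18 libraries and 0.0489 with 12). Both were low in every DKO library, as the groups were separate in all 173 genes of this fit. The adjusted p over the 19 alternatives ran from 0.000399 to 0.202 for Kcnk3 and from 0.0307 to 0.5 for Slit2.

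Cmya5, which encodes the muscle protein myospryn, was among the sharper of these falls: 37.8, 46.8 and 33.2 CPM in DKO, against 82.5, 82.4 and 95.2 CPM in double heterozygotes (-1.14). In DKO 5, 7 and 10 against WT it was at -0.12 (adjusted p = 0.887). Wif1, a secreted inhibitor of Wnt ligands, was at 2.85, 3.41 and 1.77 CPM in DKO, against 7.68, 6.33 and 5.20 CPM in double heterozygotes (-1.26), and in the other libraries it was at -1.81 (adjusted p = 0.0143). Cmya5 thus had a much smaller value in the other libraries, while Wif1 was low in DKO of both; whether the sets of libraries differ was not tested. Gria1, a glutamate receptor subunit, fell by 0.73 in the 12-library fit and the receptor Gpr149 by 0.96. The metallothionein Mt2, whose gene lies near Irx3, had a fitted value of -1.35, with 1.89, 1.91 and 2.19 CPM in DKO and 2.69, 7.01 and 5.64 CPM in double heterozygotes. The heterozygotes varied widely for Mt2.

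Of the 88 genes higher in the 12-library fit, 81 (92%) were also higher in DKO 5, 7 and 10 than in WT, and of the 85 lower, 79 (92.9%) were also lower. The same held for 62.1% of all genes above 0 and 58.3% of all genes below 0. Fewer passed in those libraries too: 24 of the 88 (27.3%) and 15 of the 85 (17.6%).

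Gene length moved with the comparison. Across 16600 genes, the log2 fold change had a Spearman's rho of -0.213 with transcript length (averaged over a gene's transcripts by count) and 0.165 with GC content, given as a description since genes of a library share its depth and preparation. The median was 0.091 for the 1803 genes under 1000 nt and -0.109 for the 515 genes over 8000 nt. Of the 82 cytosolic ribosomal protein genes, a list chosen after seeing the data and made of short genes, 14 rose and 1 fell in the 12-library fit and the median was 0.13; with length and GC trends removed from each library, the median was 0.01. With the trends removed, the 12-library fit called 55 genes, 30 higher (0.184%) and 25 lower (0.153%); of the 173, 28 of the 88 higher (31.8%) and 22 of the 85 lower (25.9%) still passed. Irx3, Pcdhac2, Tbx2, Gja1, Kcnh7, Pdzrn3, Trib2, Pln, Nup210, Sfrp1, Wscd2 and Gnb3 were among those that did, as were Myl7 (0.52, adjusted p = 0.0113), Mybphl, Stard10, Kcnj3, Thbs4, Kcnk3 and Cmya5. Gm10705 (adjusted p = 0.0582), Nav1 (0.0762), Hif3a (0.0534), Tnni2 (0.0784), Myl4 (0.0643), Bmp2 (0.0732), Slit2 (0.0867), Wif1 (0.0628), Gria1 (0.0881), Kdr (0.0836), Gata6 (0.0948), Myocd (0.104) and Irx4 (0.128) were not. With the trends removed from all 18 libraries, Pln, Wscd2, Nav1 and Hif3a lost the call of the 18-library fit, and Myl7, Mybphl, Stard10, Kcnj3, Thbs4, Kcnk3 and Cmya5 did not pass. Of the 55, the same sign held in DKO 5, 7 and 10 against WT for 27 of 30 (90%) higher and 23 of 25 (92%) lower, beside 62.3% and 54.6% of all genes after the same correction.

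**Figure D4:**
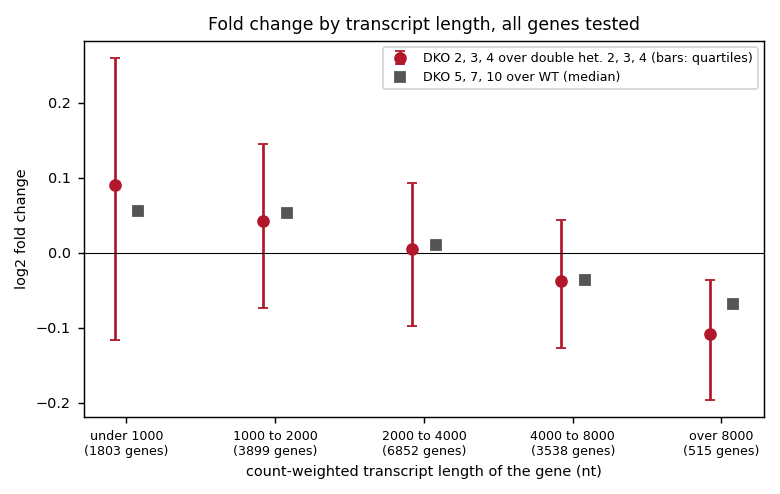
Median log2 fold change (y axis) of genes in 5 classes of count-weighted transcript length in nt (x axis), for DKO 2, 3 and 4 over double heterozygotes (circles, with bars for the quartiles) and for DKO 5, 7 and 10 over WT (squares). In the first comparison the median is 0.091 in the shortest class and -0.109 in the longest.

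Of the 30 lists of genes examined, the atrial markers had the largest median log2 fold change. None of the 13 passed in the 18-library fit and 5 rose in the 12-library fit, and the median was 0.38 beside 0.004 for all genes; in DKO 5, 7 and 10 against WT it was 0.39. Myl4, the atrial essential light chain, was at 1590, 1330 and 1560 CPM in DKO and 1060, 1160 and 1230 CPM in double heterozygotes (0.38, adjusted p = 0.113 with 18 libraries and 0.0219 with 12, 0.00566 to 0.356 over 19 alternatives). Stard10, a lipid transfer protein, was at 21.2, 26.1 and 24.4 CPM in DKO and 13.6, 14.1 and 16.1 CPM in double heterozygotes (0.71), and Kcnj3, a subunit of the acetylcholine-activated potassium channel, at 35.2, 41.5 and 47.2 CPM in DKO and 28.5, 27.5 and 29.2 CPM in double heterozygotes (0.54).

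The groups were separate, with DKO higher, for 6 of the 13: Myl4, Myl7, Stard10, Kcnj3, Mybphl and the T-box factor Tbx5, beside 8.07% of all genes tested. They overlapped for Sln (-0.09), for Nr2f2 (0.03), a nuclear receptor that specifies atrial identity, and its relative Nr2f1 (-0.09), and for the natriuretic peptide gene Nppa (0.40). They also overlapped for the potassium channel Kcna5 (-0.11), for Fgf12 (0.80, with means under 1 CPM) and for the angiopoietin gene Angpt1, which had the lowest value of the list (-0.51, means of 39.6 CPM in DKO and 56.3 CPM in double heterozygotes). Summed over the list, atrial markers reached 6654 to 7320 TPM in DKO and 4968 to 6325 TPM in double heterozygotes. Dissection of atrial tissue with the ventricles was not tested as a source.

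Among 9 ventricular markers Gja1 and Pln fell and 7 did not pass, with a median of -0.18. The ventricular light chains Myl2 and Myl3 were at 0.00 and 0.01, the compact wall repressor Hey2 at -0.19 and the slow myosin heavy chain Myh7 at -0.19 (adjusted p = 0.461), for which all 3 DKO libraries were lower. Their summed level was 19680 to 20760 TPM in DKO and 21750 to 23280 TPM in double heterozygotes. On the TPM scale Myl2 itself was lower in DKO, while in CPM its means were 4164 in DKO and 4155 in double heterozygotes, so this sum depends on the scale.

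**Figure D5:**
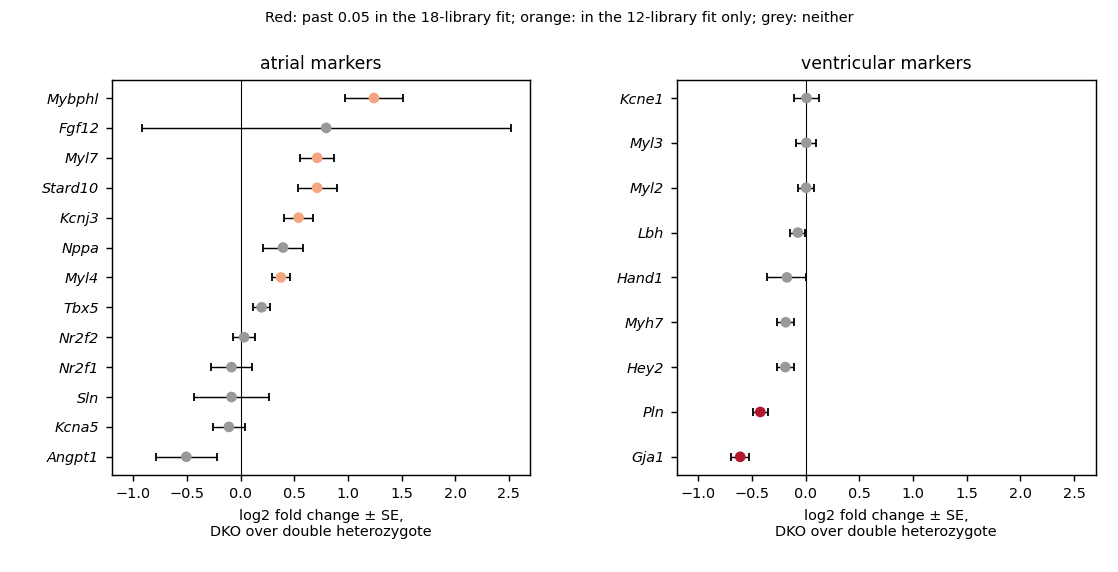
Log2 fold change, DKO over double heterozygote, of each measured atrial marker and ventricular marker, with bars of 1 SE. Atrial Myl7, Stard10 and Mybphl lie at 0.71, 0.71 and 1.24, Sln, Nr2f1 and Nr2f2 lie near 0, and ventricular Gja1 and Pln lie at -0.61 and -0.42.

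Of 34 conduction and ion channel genes measured, Tbx2 and Kcnh7 rose and 32 did not pass; the 12-library fit added the rise of Kcnj3 and the fall of Kcnk3. The pacemaker channel Hcn4 averaged 16.3 ± 3.83 CPM in DKO and 17.3 ± 2.48 CPM in double heterozygotes. Of 18 gap junction and intercalated disc genes Gja1 fell, and in the 12-library fit also Ctnna3, the alpha-T-catenin of the disc, at 43.8, 46 and 42.5 CPM in DKO and 54.4, 54.7 and 52.5 CPM in double heterozygotes (-0.29). Connexin 40 (Gja5), the connexin of trabeculae and bundle branches, averaged 223 ± 46.3 CPM in DKO and 183 ± 8.23 CPM in double heterozygotes, with overlap. Of 18 calcium handling genes Pln alone fell; the pump gene Atp2a2 averaged 2778 ± 148 CPM in DKO and 2971 ± 262 CPM in double heterozygotes and the release channel gene Ryr2 370 ± 46.6 CPM in DKO and 462 ± 62.0 CPM in double heterozygotes (SD, n = 3 each).

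No member of the 8 compact or 13 trabecular myocardium genes passed in the 18-library fit, with medians of 0.011 and -0.117. The growth-promoting factor Mycn of the compact wall was at 128, 105 and 139 CPM in DKO and 142, 161 and 167 CPM in double heterozygotes (-0.33, adjusted p = 0.269). Bmp10, the trabecular growth factor, was at -0.30 (adjusted p = 0.73), and Slit2 was the trabecular gene that fell in the 12-library fit. Among 30 cell cycle genes 26 had a positive log2 fold change, beside 8464 of all 16607 genes tested, none passed in either fit and the median was 0.072; the mitotic kinase Aurka had the smallest p, at 67.7, 56.9 and 62.7 CPM in DKO and 53.4, 53.6 and 52.5 CPM in double heterozygotes. No gene of 18 in the Notch pathway passed in either fit (median -0.059), and for none were the groups separate, beside 8.07% of all genes with DKO higher and 7.95% with DKO lower.

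The signalling lists gave few calls. Of 30 Wnt pathway genes Sfrp1 rose and, in the 12-library fit, Wif1 fell, so that 2 inhibitors of Wnt ligands differed in opposite directions. Of 30 genes for BMP, neuregulin, FGF and IGF signals none passed with 18 libraries and Bmp2 rose with 12. Of 31 genes of cAMP, muscarinic and adrenergic signalling none passed with 18 libraries, and Pde3a, a phosphodiesterase that breaks down cAMP, rose with 12 (0.29).

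Of 18 cardiac transcription factors none passed in the 18-library fit. In the 12-library fit Hand2, a factor of right ventricle and cushions, and Gata6 rose, by 0.33 and 0.17, and Mef2c and its partner Myocd, activators of muscle genes, fell by 0.31 and 0.36; the calls of Gata6 and Myocd were lost with length and GC trends removed. Mef2c was at 123, 126 and 117 CPM in DKO and 148, 149 and 156 CPM in double heterozygotes. Hand2 was at 103, 104 and 115 CPM in DKO and 85.6, 81.4 and 88.6 CPM in double heterozygotes. In DKO 5, 7 and 10 against WT, Hand2 was at 0.093 (adjusted p = 0.576) with overlapping groups. Mef2c (-0.097, adjusted p = 0.716) and Myocd (-0.085, adjusted p = 0.77) also overlapped there. Gata6 passed there (0.225, adjusted p = 0.0439). Of the 19 alternatives, Hand2 passed under 4, Mef2c and Myocd under 3 each and Gata6 under 1. None of the 28 genes for fatty acid use and respiration, the 23 for glycolysis and hypoxia or the 14 immediate early and heat shock genes passed in either fit.

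Few markers of other cells of the ventricle passed. In the 18-library fit no endothelial and endocardial (17), epicardial (12), cushion and fibroblast (12), smooth muscle and pericyte (10), macrophage and leukocyte (17), erythroid (14) or neural (19) marker passed. The 12-library fit added a fall of the endothelial receptor Kdr (lost with length and GC trends removed), at 164, 178 and 149 CPM in DKO and 209, 193 and 209 CPM in double heterozygotes, a fall of the basement membrane laminin Lama4 (-0.25) and a fall of the lysozyme Lyz2, at 7, 9.25 and 9.48 CPM in DKO and 16.8, 12.5 and 17.1 CPM in double heterozygotes. Lyz2 shares reads with its near-identical copy Lyz1 and its count is uncertain.

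Summed endothelial markers were at 975.1 to 1134 TPM in DKO and 1124 to 1242 TPM in double heterozygotes, which overlap, and epicardial markers at 196.4 to 232.6 TPM in DKO and 195.0 to 216.6 TPM in double heterozygotes. The sum of neural markers was lower in DKO, at 76.1 to 97.71 TPM against 108.6 to 117.9 TPM in double heterozygotes, though the median log2 fold change of the 19 tested was 0.16. Sox10, which defines glial and neural crest cells, was at 0 in all 3 DKO libraries and at most 0.0877 TPM in double heterozygotes. The leukocyte marker Ptprc was at most 0.201 TPM in DKO and 0.449 TPM in double heterozygotes. The part of these cells in the changes of Pcdhac2, Kcnh7, Nav1 and Kdr was not tested.

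The share of genes called was counted by chromosome. In the 12-library fit 13 of 879 genes on chromosome 8, which carries Irx3, were called (1.48%), and 10 of 600 on chromosome 13, which carries Irx4 (1.67%), beside 1.06% overall; chromosome 10, which carries neither, had the highest share, 15 of 793 (1.89%). Of 19 measured neighbours of Irx3, Mt2 fell with 12 libraries and none passed with 18, and of 17 measured neighbours of Irx4 none passed in either fit. The neighbours Irx5 (-0.24, adjusted p = 0.512) and Irx1 (-0.23, adjusted p = 0.403) were lower in all 3 DKO libraries.

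Iroquois proteins of Drosophila bind the palindrome ACANNTGT, and the 250 bases upstream of transcription starts in RefSeq (GRCm38.p6) were searched for it. It reads the same on both strands. A gene was counted if any of its promoters held it. It occurred in 7.2% of the 27025 genes of that table and in 4.61% of the 12143 genes tested that have a promoter there. None of the 9 called genes of the 18-library fit with a promoter in the table held it, and 4 of 116 of the 12-library fit did (3.45%): Fam78a, Prss23, Wif1 and Zbtb46. The promoters of Gja1, Pln and Kcnh7 are shown because these genes passed and were the same in direction in both sets of libraries, and that of Wif1 because it holds the motif, in capitals, where it overlaps an E-box (CACGTG). They are given 5′ to 3′ on the strand of the gene: Gja1 at chr10:56377050-56377299 (+), Pln at chr10:53337436-53337685 (+), Kcnh7 at chr2:63184288-63184537 (-) and Wif1 at chr10:121033754-121034003 (+).
Gja1: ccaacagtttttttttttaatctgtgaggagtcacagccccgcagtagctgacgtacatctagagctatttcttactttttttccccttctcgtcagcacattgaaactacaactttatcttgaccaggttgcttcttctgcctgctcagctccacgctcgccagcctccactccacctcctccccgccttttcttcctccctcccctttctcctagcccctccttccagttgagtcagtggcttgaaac
Pln: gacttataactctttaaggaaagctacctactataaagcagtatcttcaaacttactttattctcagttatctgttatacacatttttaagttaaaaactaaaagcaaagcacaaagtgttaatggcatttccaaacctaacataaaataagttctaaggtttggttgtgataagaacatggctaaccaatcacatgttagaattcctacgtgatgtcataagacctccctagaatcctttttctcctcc
Kcnh7: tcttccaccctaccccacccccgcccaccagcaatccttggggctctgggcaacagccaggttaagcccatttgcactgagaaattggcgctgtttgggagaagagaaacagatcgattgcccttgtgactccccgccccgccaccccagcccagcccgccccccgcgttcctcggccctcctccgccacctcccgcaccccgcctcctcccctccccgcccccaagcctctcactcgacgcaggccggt
Wif1: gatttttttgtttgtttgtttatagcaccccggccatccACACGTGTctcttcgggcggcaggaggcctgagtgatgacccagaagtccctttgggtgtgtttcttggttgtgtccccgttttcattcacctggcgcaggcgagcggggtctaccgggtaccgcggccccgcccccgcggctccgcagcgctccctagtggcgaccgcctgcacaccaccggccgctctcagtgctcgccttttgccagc
A match is a description of the letters and not a site, and the lack of one says only that they are not in this window.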

How the data were processed

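PolyA RNA of E14.5 ventricles was measured in 18 libraries of 5 genotypes. Per the file headers, the authors deposited kallisto tables of estimated counts and TPM per transcript, and the TPM values are scaled for length and library total. Kallisto 0.42.2 and mm9 are listed in the submitters' processing notes, and neither the transcript release nor the strand option is given in the sources used here. Of 88943 transcripts, 78030 (87.73%) were matched by identifier to GENCODE M21 (GRCm38) and their estimated counts were summed over 28563 genes and rounded; the other 10913 held 6.43% to 6.77% of counts and entered no test. TPM was used for marker levels and for counts rebuilt in an alternative. CPM was computed with TMM factors.

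The test was edgeR 4.0.16 under R 4.3.3 (robust quasi-likelihood F test, TMM, filterByExpr, Benjamini-Hochberg adjustment, threshold 0.05) in 1 fit of all 18 libraries, with DKO 2, 3 and 4 and DKO 5, 7 and 10 as separate groups. The fold change of DKO against double heterozygote thus comes from the 6 libraries alone and the spread from all, with 12 residual degrees of freedom. SE is the log2 fold change divided by the square root of F. No set of replicate libraries repeated another (chi-square per gene 14.7 to 24). The code was tested on simulated data.

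Named genes were Irx3, Irx4, up to 15 of the largest rises and falls past the threshold with at least 5 CPM in a group and no overlap between groups, up to 4 called members of each list, and the member with the smallest p where none was called. Gene models without a descriptive symbol, Y-linked genes and Xist were passed over. The members, the 30 lists (588 entries, of which 13 had low counts and 3 no match) and the tests were chosen with earlier results of these data known, so no pattern here is independent of those results.

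As alternatives there were DESeq2 1.42.0, RLE size factors in edgeR, limma-voom (limma 3.58.1), no filter or 1 CPM in 3 libraries as filters, the 6 or the 12 libraries only, counts rebuilt from TPM, a sex covariate, the replicate number as a block, all 6 DKO libraries, and each of the 6 libraries left out. Removing each library's length and GC trends, with 18 or 12 libraries, was added after the data were seen. Promoters are RefSeq sequences (GRCm38.p6).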

Additional observations from a re-analysis of the deposited data

How the results depend on the processing

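The count of 15 genes was 183 by DESeq2, 173 with the 12 libraries of the same profile and 55 with those 12 after length and GC trends were removed. It was 317 with all 6 DKO libraries and 29 by limma-voom, and the cause was not tested. Leaving out 1 library gave 4 to 17. Size factors by RLE gave 14 genes, no filter 17, a filter of 1 CPM 14, the 6 libraries alone 11, counts rebuilt from TPM 13, the sex covariate 12 and trends removed with 18 libraries 16. Deviations of replicates with the same number had correlations of 0.051, 0.012 and 0.022, beside -0.12 to 0.087 for different numbers. With 3 libraries a group this cannot decide whether the numbers pair the libraries. With the replicate number as a block, 2 genes passed.

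The count of 239 genes in DKO 5, 7 and 10 against WT was 608 by DESeq2, 155 by limma-voom, 144 with counts rebuilt from TPM and 406 with length and GC trends removed. The value of Pde3a was -0.08 with all 6 DKO libraries, the only named gene whose sign turned under any alternative. Irx3 passed under all 19 alternatives, Pcdhac2 and Gja1 under 18 and Tbx2 under 16. Counting error is largest for genes of a few CPM, and the shallowest of the 6 libraries, double heterozygote 4, held 26721576 estimated counts.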

Other observations

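Spp1, Gpr37 and Nrn1, chosen after their values were seen, passed in the 12-library fit and lie outside the lists. Spp1, which encodes the matrix protein osteopontin, averaged 1.30 ± 0.281 CPM in DKO and 3.96 ± 0.484 CPM in double heterozygotes (SD, n = 3 each). Gpr37, an orphan receptor best known in brain, averaged 2.07 ± 0.287 CPM in DKO and 3.84 ± 0.389 CPM in double heterozygotes. Nrn1, a neuronal surface protein, averaged 2.90 ± 0.318 CPM in DKO and 1.41 ± 0.226 CPM in double heterozygotes. All 3 had the same sign in DKO 5, 7 and 10 against WT. The ribosomal protein gene Rplp0 did not: it averaged 475 ± 9.0 CPM in DKO and 638 ± 36.3 CPM in double heterozygotes, and 947 ± 394 CPM in DKO 5, 7 and 10 against 404 CPM in WT.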
